A study of Zea mays with 10 samples.

Results

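The maize tubulin genes tua4, tua5, tub3 and tub5 were described across the stems of 5 inbred lines. They are 4 of the 1108 genes that the annotation of the Affymetrix maize array names, and 6 probe sets of the 17734 in the table carried their names: 2 for tua4, 1 for tua5, 1 for tub3 and 2 for tub5. All 6 were bright enough to be tested. The genes were chosen by a rule that uses measured values of these arrays without naming them. They were taken to be the differences between F7025 and the other lines, since earlier results had tubulins high in F7025, and every value that sets F7025 against the others is therefore a description without a test. Tests were kept to the other 4 lines; if differences among those also entered the choice, the tests reuse them.

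Total RNA was taken from untreated stems, with 2 arrays per line and a pool of 5 plants behind each array. F7025 is a Flint-Dent line with yellow grain whose stated origin is IodentXF113bm3. F7033, also a yellow Flint-Dent line, came from (LorenaXF252)XF252. F98902 is a Dent line from Iodent, F2 a Flint line from lacaune, and Cm484 a Flint-Dent line from 200-2-1. Flint and Dent are grain types, and all 10 pools were harvested on the same day. Nothing in the labels says that the 2 pools of a line came from separate plots, so p-values measure the spread between these pools, which may be partly technical. RNA of a pooled stem mixes cell types, and more cells of a type cannot be told apart from more RNA per cell.

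Alpha and beta tubulin join into dimers, and these dimers polymerise into the hollow filaments called microtubules. In growing plant cells the microtubules under the plasma membrane guide cellulose synthase complexes, and in thickening xylem and fibre cells they mark where the secondary wall is laid down. Plants carry small families of near-identical alpha and beta tubulin genes, while gamma tubulin, a relative that starts new microtubules, is encoded by few genes. Because the family is so alike in sequence, a probe set named for one tubulin may also take up RNA of another.

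Each value below is a GCRMA value, the submitters' background-adjusted and normalized brightness of a probe set on a log2 scale, so that a difference of 1 is a doubling. Brightness also depends on the probes, and levels are compared between lines and never between genes. The share of probe sets with a value of 4 or more was 57.6% to 58.4% on the 10 arrays. Over the tested probe sets, arrays of the same line correlated at 0.965 to 0.993 (Pearson's r) and arrays of different lines at 0.821 to 0.937. In F98902, F2 and Cm484 the second array was made from 20 ug of RNA, and the other 7 arrays from 60 to 100 ug. The gap between the 3′ and 5′ control probe sets of an elongation factor, a sign of RNA breakage, was 2.69 log2 on the second F98902 array and 1.59 to 2.19 on the other arrays. The same gap for actin was 3.84 and 2.80 on the F2 arrays and 4.55 to 5.33 on the other 8. The second F98902 array and both F2 arrays thus stood apart on 1 control each, while the first F98902 array did not (1.66 for the elongation factor). The part of RNA quality in the differences below was not tested. Genes of stem secondary walls fitted the tissue label, with 7 of 7 at 4 or more on all arrays (9.00 to 13.4). The 6 green tissue genes, by the brightest probe set of each (6.87 to 13.5), and the meristem genes kn1 and lg3 were also at 4 or more on all arrays. Of 13 green tissue probe sets, 2 stayed under 4 on all arrays. Of 18 probe sets of 10 kernel genes, 16 stayed under 4 on all arrays, the exceptions being 1 probe set each of bt2 and zp27. No pollen marker was found by name.

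The brighter probe set of the alpha tubulin gene tua4 read 13.55 and 13.31 in F7025, 13.14 and 13.12 in F7033, 12.88 and 13.06 in F98902, 12.92 and 13.13 in F2, and 13.27 and 13.21 in Cm484. Both F7025 arrays lay above all others, the Cm484 arrays came next, and the arrays of F7033, F98902 and F2 lay close together, with those of F2 overlapping both of the others. The array maker marks this probe set as one whose probes can match more than 1 transcript, and its value may include other alpha tubulins.

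The other tua4 probe set, marked as matching alternative transcripts of the same gene, read 13.55 and 13.21 in F7025, 12.93 and 13.05 in F7033, 13.05 and 13.10 in F98902, 12.85 and 12.66 in F2, and 13.25 and 13.12 in Cm484. Here F7025 had the highest mean but not both of the highest arrays, since its second array lay below the first Cm484 array. F2 was lowest, with both arrays under all others. The probe sets of tua4 thus ordered the lines alike at the top and differently at the bottom: F98902 was lowest on the brighter one, F2 on the dimmer one. The brighter minus the dimmer was 0.27 ± 0.28 in F2 and −0.11 ± 0.09 in F98902 (SD, n = 2 each).

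The alpha tubulin gene tua5 (LOC542248) varied more than tua4. It read 12.11 and 12.20 in F7025, 11.54 and 11.48 in F7033, 11.39 and 11.21 in F98902, 11.81 and 12.07 in F2, and 11.75 and 11.82 in Cm484. F7025 was highest on both arrays and F98902 lowest on both, and only F2 and Cm484 overlapped. Line means ran down through 12.16 ± 0.07 in F7025, 11.94 ± 0.18 in F2, 11.79 ± 0.05 in Cm484, 11.51 ± 0.04 in F7033 and 11.30 ± 0.12 in F98902 (SD, n = 2 each).

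With F7025 included, the beta tubulin gene tub3 (LOC542416) varied least, and without F7025 it did not. It read 11.11 and 10.76 in F7025, 10.62 and 10.56 in F7033, 10.67 and 10.70 in F98902, 11.00 and 11.01 in F2, and 11.14 and 10.89 in Cm484. Cm484 and F2 had the highest means, and F7025 came next with arrays that overlapped those of both. F7033 was lowest on both arrays, just under F98902.

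The beta tubulin gene tub5 (LOC542418, also listed under the synonym tub8) varied most, though without F7025 only on its dimmer probe set. Its brighter probe set read 12.70 and 12.49 in F7025, 11.48 and 11.67 in F7033, 11.87 and 11.99 in F98902, 11.73 and 11.88 in F2, and 11.43 and 11.30 in Cm484. F7025 stood clear of every other array, F98902 and F2 overlapped, and Cm484 was lowest on both arrays.

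The dimmer tub5 probe set, also marked for alternative transcripts, read 10.80 and 10.39 in F7025, 8.98 and 9.22 in F7033, 9.98 and 9.61 in F98902, 9.48 and 9.97 in F2, and 9.37 and 9.33 in Cm484. F7025 was again above every other array, and F98902 and F2 again overlapped in the middle. The lowest line was F7033 here and Cm484 on the brighter probe set. The brighter minus the dimmer was 2.48 ± 0.04 in F7033 and between 1.99 and 2.13 in the other lines, with an SD of up to 0.34 in F98902 (n = 2 each).

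**Figure D1:**
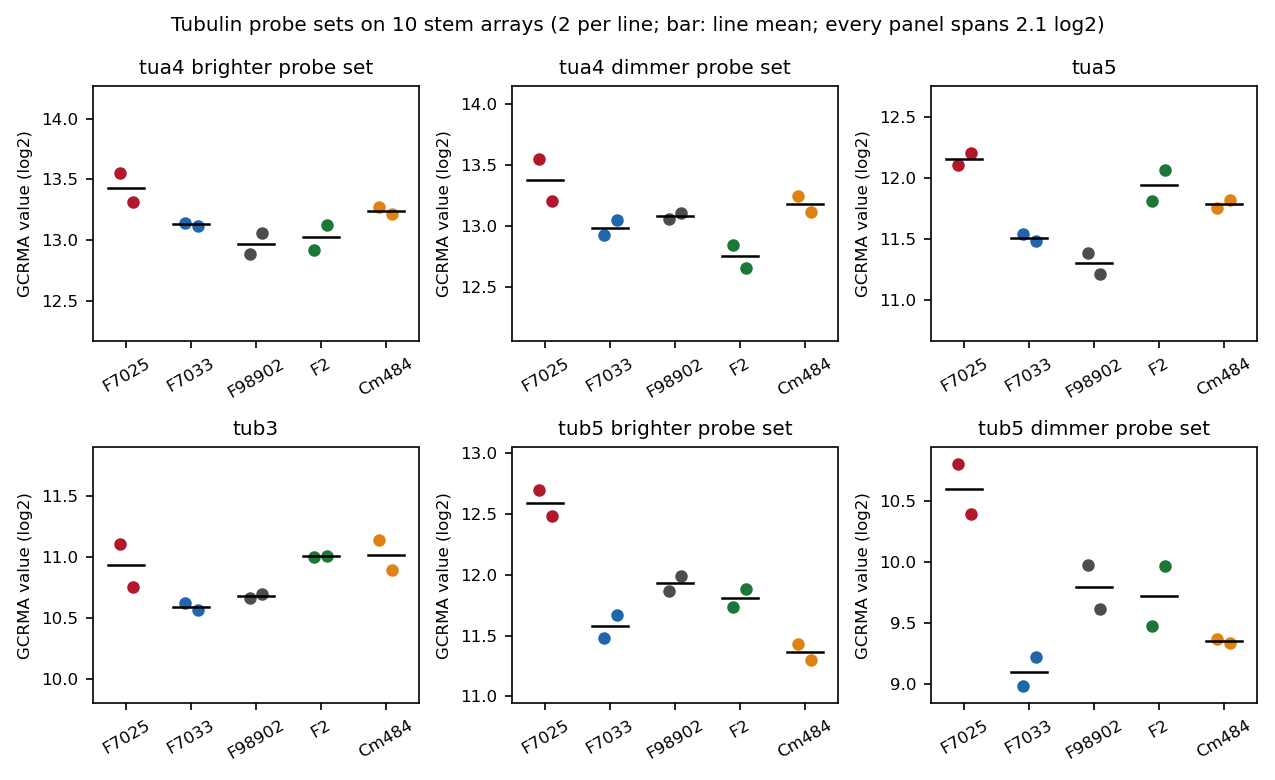
GCRMA values (log2, vertical axis) of the 6 tubulin probe sets in 5 maize lines; each point is 1 array, each bar the mean of 2 arrays, and every panel spans the same range. F7025 lies above all other arrays for tua5, both tub5 probe sets and the brighter tua4 probe set, while tub3 is highest in Cm484 and F2.

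The F7025 mean was above the mean of the 4 other lines by 0.34 ± 0.09 log2 (SE from the limma fit, here and for the other genes) on the brighter and 0.38 ± 0.10 on the dimmer tua4 probe set. For tua5 the difference was 0.52 ± 0.09, or 1.44-fold. For tub5 it was 0.92 ± 0.09 on the brighter and 1.11 ± 0.17 on the dimmer probe set, 1.89-fold and 2.15-fold. These values are taken to have entered the choice of the genes and are given as sizes only. For tub3 the difference was 0.11 ± 0.11, no larger than its error, and without the first F7025 array it was −0.07.

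The first F7025 array was the higher of the pair for tua4, tub3 and tub5 and the lower for tua5. Without it, the tua4 differences were 0.22 and 0.21, and without the second they were 0.46 and 0.55. For tua5 (0.47 to 0.57) and for tub5 (0.82 to 1.03, and 0.90 to 1.31) leaving out any 1 array kept the difference near its full value.

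The line nearest to F7025 was not the same for each gene. It was Cm484 for tua4, at 0.19 log2 on both probe sets with an SE of 0.12 and 0.13, and F2 for tua5, at 0.22 ± 0.12. For tub5 it was F98902, at 0.66 ± 0.12 and 0.80 ± 0.21. Only for tub5 was every other line more than 0.6 log2 below F7025, down to 1.23 below in Cm484 on the brighter probe set and 1.50 below in F7033 on the dimmer one. For tub3, F7025 minus Cm484 was −0.08 ± 0.14 and F7025 minus F2 was −0.07 ± 0.14. Over all tested probe sets, the F7025 and Cm484 arrays were the most alike of any different lines (r = 0.913 to 0.937). The nearness of tua4 to Cm484 is thus not particular to that gene.

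How widely a gene varied over the lines was read from the range of its 5 line means. This was 0.46 and 0.63 log2 for the tua4 probe sets, 0.86 for tua5, 0.43 for tub3, and 1.23 and 1.50 for tub5. Over all 11067 tested probe sets the median range was 1.03 (quartiles 0.638 and 1.83), and over the 1281 with a mean of at least 10 it was 0.775. These ranges include F7025 and are a description only. Without F7025 the ranges were 0.27 and 0.43 for tua4, 0.64 for tua5, 0.43 for tub3, and 0.56 and 0.70 for tub5. All 6 lay under the medians over the other 4 lines, 0.923 for all tested probe sets and 0.709 for those with a mean of at least 10. The dimmer tub5 probe set has a mean under 10 and is not among the latter.

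Differences among F7033, F98902, F2 and Cm484 were tested with limma on all probe sets, with Benjamini-Hochberg adjustment over the 11067 tested in each pair and a call at an adjusted p under 0.05. Among the 6 probe sets and 6 pairs, 10 of 36 combinations passed, or 27.8%, against 39.6% over all tested probe sets. The members' share was below this background, so the count itself marks no special behaviour of these genes. In the limma F-test across the 4 lines, 4 of the 6 passed, against 69.6% of all tested probe sets. They were tua5 (adjusted p = 0.0054), the brighter and dimmer tub5 probe sets (0.0128 and 0.0495) and tub3 (0.0401). The tua4 probe sets did not pass (0.206 and 0.0722).

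By pair, 2 of 6 passed in F7033 minus F98902 (42.8% of all probe sets), 2 in F7033 minus F2 (37.2%) and 1 in F7033 minus Cm484 (42.1%). In F98902 minus F2, 1 of 6 passed (39.8%), in F98902 minus Cm484 2 (37.3%) and in F2 minus Cm484 2 (38.3%). F2 read slightly high on the whole table: the median difference over all tested probe sets was −0.10 in F7033 minus F2 and −0.11 in F98902 minus F2. Under quantile normalization these medians were −0.05 and −0.07. There tua5 still passed in F7033 minus F2 (−0.36, limma adjusted p = 0.0342) and in F98902 minus F2 (−0.62, adjusted p = 0.0032). In that setting tub3 did not pass in F7033 minus F2 (−0.35, limma adjusted p = 0.0945). The part of the shift in the differences from F2 was not tested.

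The alpha tubulin tua5 was lower in F98902 than in F2, by −0.64 ± 0.12 log2 (1.56-fold; limma adjusted p = 0.0031), and the arrays of these lines did not overlap. It was also lower in F98902 than in Cm484, by −0.49 ± 0.12 (adjusted p = 0.0116), and lower in F7033 than in F2, by −0.43 ± 0.12 (adjusted p = 0.0193). The order was thus F2 and Cm484 above F7033 and F98902, although F7033 minus Cm484 did not pass (−0.28, adjusted p = 0.0862). Between the upper lines the difference was 0.15 (F2 minus Cm484, 95% interval −0.11 to 0.42), and between the lower ones 0.21 (F7033 minus F98902, −0.06 to 0.47).

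Of these calls, F98902 against F2 held without any 1 array (highest adjusted p = 0.0281) and was lost without the 20 ug arrays (0.132). F98902 minus Cm484 did not pass without the second F98902 array (0.0622) or the second Cm484 array (0.0643). F7033 minus F2 did not pass without either F7033 array or the second F2 array. Without the 20 ug arrays both of these calls were lost as well. The differences there were −0.37 for F98902 minus Cm484 and −0.30 for F7033 minus F2.

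The beta tubulin tub5 took another order. On its brighter probe set it was higher in F98902 than in Cm484, by 0.56 ± 0.12 log2 (1.48-fold; limma adjusted p = 0.0072), and higher in F2 than in Cm484, by 0.44 ± 0.12 (adjusted p = 0.0208). In the pair F98902 and Cm484, tub5 was therefore higher where tua5 was lower, and both differences passed. The dimmer tub5 probe set had the same signs, at 0.45 ± 0.21 and 0.37 ± 0.21, and did not pass (adjusted p = 0.137 and 0.203).

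F7033 was below F98902 on both tub5 probe sets, by −0.35 ± 0.12 on the brighter (adjusted p = 0.0446) and −0.70 ± 0.21 on the dimmer (adjusted p = 0.0293). On the dimmer one F7033 minus F2 was −0.62 ± 0.21, just over the threshold (adjusted p = 0.05). F98902 and F2 did not differ beyond their spread on either probe set, with differences of 0.12 (95% interval −0.15 to 0.40) and 0.07 (−0.41 to 0.56).

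Among the tub5 calls, F98902 against Cm484 on the brighter probe set was lost without the second Cm484 array (0.0514) and without the 20 ug arrays (0.204). F2 against Cm484 was lost without that Cm484 array (0.118), the second F2 array (0.132) or the 20 ug arrays (0.346). The brighter probe set's call between F7033 and F98902 was lost under 14 of 17 alternatives (adjusted p up to 0.254). The dimmer one's was lost under 5: without either F7033 array (0.161 and 0.0578), without the first F98902 array (0.135), with array weights (0.0699) and without the 20 ug arrays (0.0552).

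For tub3, F7033 was lower than Cm484 by −0.43 ± 0.14 log2 (1.34-fold; limma adjusted p = 0.0356) and lower than F2 by −0.41 ± 0.14 (adjusted p = 0.0434). F98902 lay almost as low, at −0.33 and −0.32 from the same lines, and did not pass (adjusted p = 0.087 and 0.091). F2 minus Cm484 was −0.01 (95% interval −0.32 to 0.30), and F7033 minus F98902 was −0.09 (−0.40 to 0.22), intervals that still hold differences of nearly the size called. The calls of tub3 were weak: F7033 against Cm484 was lost under 9 of 17 alternatives and F7033 against F2 under 10, both without either F7033 array (adjusted p = 0.109 and 0.138, and 0.123 and 0.164) and under quantile normalization (0.116 and 0.0945).

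For tua4, only F2 minus Cm484 on the dimmer probe set passed, at −0.43 ± 0.13 log2 (1.35-fold; limma adjusted p = 0.0326). The brighter probe set gave −0.22 ± 0.12 for that pair (adjusted p = 0.179). The call was lost under 9 of 17 alternatives, among them without any 1 array of F7033, F2 or Cm484 (adjusted p = 0.0537 to 0.19). On the brighter tua4 probe set none of the 6 pairs passed in limma, and 1 had an unadjusted p under 0.05, F98902 minus Cm484 (−0.27).

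Of the tested pairs, none that were neighbours in the order of a gene passed in limma, so the orders show which end a line lies towards and not exact ranks. The calls join lines 2 or more places apart.

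**Figure D2:**
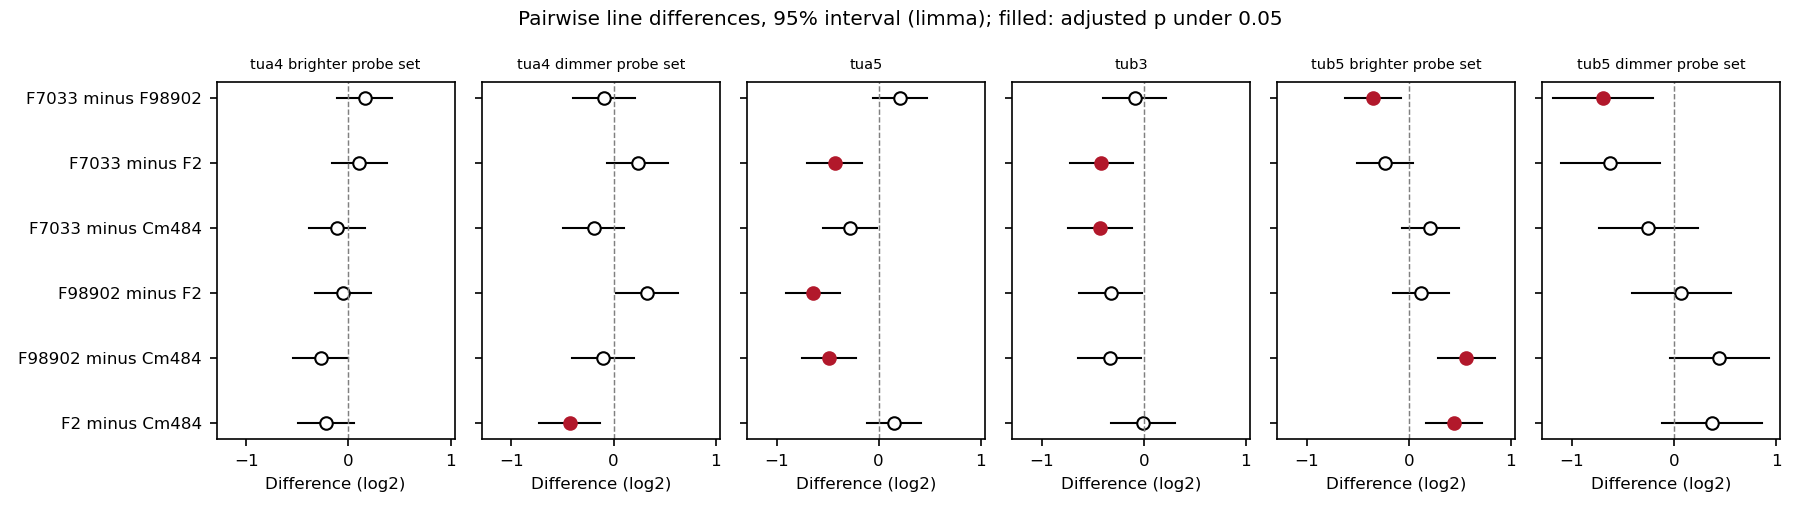
Differences between line means (log2, horizontal axis, first line minus second) for the 6 pairs without F7025 in 6 tubulin probe sets; points are limma estimates, lines 95% intervals, and filled points have an adjusted p under 0.05. The filled points are 10 of 36, and in F98902 minus Cm484 tua5 lies left of 0 and the brighter tub5 probe set right of it.

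The 3 lines with a 20 ug array were also compared within each RNA amount, where each of them has 1 array, and these values are given without a test. For tua5, F98902 minus F2 was −0.86 between the 20 ug arrays and −0.42 between the others, and F98902 minus Cm484 was −0.61 and −0.37. For the brighter tub5 probe set, F98902 minus Cm484 was 0.69 and 0.44, and F2 minus Cm484 0.59 and 0.30. For the dimmer tua4 probe set, F2 minus Cm484 was −0.46 and −0.40. In each of these 5 calls the arrays of the lines compared did not overlap, so the direction could not differ between amounts. The values therefore show sizes only. Among pairs without a call, the sign changed for the dimmer tub5 probe set in F98902 minus F2 (−0.36 and 0.50). It also changed for tub3 in F2 minus Cm484 (0.12 and −0.14). A fit without the 3 arrays of 20 ug, which leaves 2 residual degrees of freedom, gave 0 limma calls among the 36 member combinations, with 3 at an unadjusted p under 0.05, and called 19.9% over all tested probe sets. All 36 differences kept their direction in it.

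The members did not follow a common pattern over the lines. Over the 10 arrays, tua5 and tub3 correlated at r = 0.62, and over the 8 arrays without F7025 at 0.76. The brighter tua4 and tub5 probe sets correlated at 0.48 over 10 arrays and at −0.67 without F7025. The dimmer tua4 and brighter tub5 probe sets stood at 0.48 and −0.40, and tua4 passed the F-test among those 4 lines on neither probe set. The brighter tua4 probe set and tua5 stood at 0.62, and at 0.33 without F7025, but the dimmer tua4 probe set and tua5 at 0.16 and −0.51. For tua5 and the brighter tub5 probe set the values were 0.45 and −0.33, and for tua5 and the dimmer one 0.58 and 0.12. The sign without F7025 thus depended on the tub5 probe set. Probe sets of the same gene reached 0.92 for tub5 and 0.72 for tua4 (0.70 and 0.32 without F7025). These correlations are descriptions over arrays that come in pairs from 5 lines and share one normalization.

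**Figure D3:**
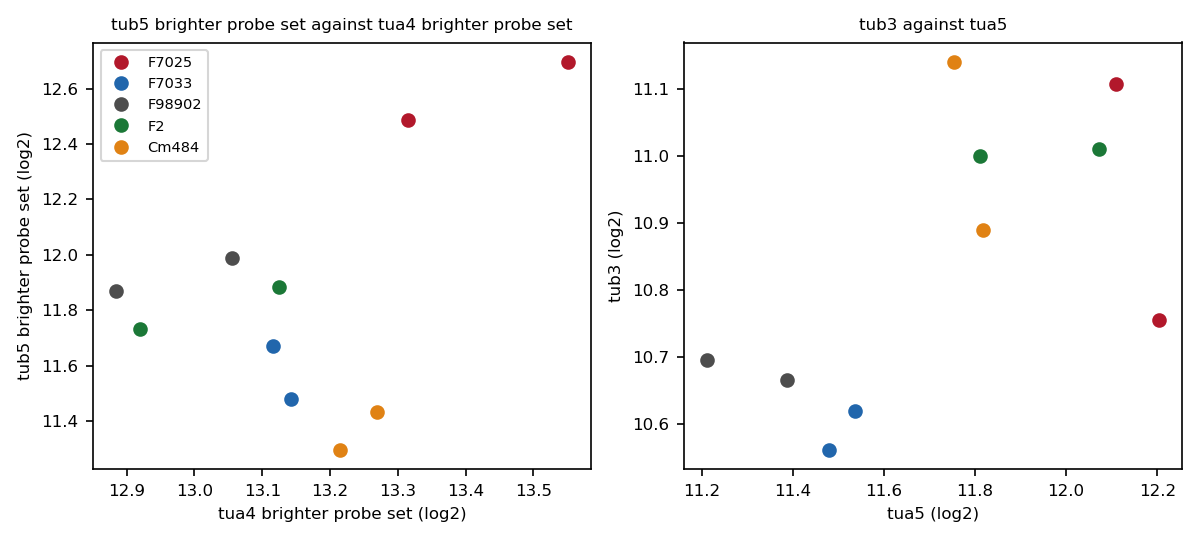
Each point is 1 array; the left panel plots the brighter tub5 probe set against the brighter tua4 probe set and the right panel tub3 against tua5 (all axes GCRMA log2 values), coloured by line. On the left the F7025 arrays lie apart at the upper right while the other 8 arrays run downwards (r = −0.67), and on the right F2 and Cm484 lie above F7033 and F98902.

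The rest of the tubulin family was taken from the same annotation. It held 10 probe sets of 6 other alpha and beta tubulin genes, of which 9 were tested, and 5 of 2 gamma tubulin genes, of which 3 were tested. Among the other alpha and beta tubulins 29 of 54 combinations passed in the 6 pairs, or 53.7%, against 39.6% over all tested probe sets. The 4 probe sets of tub6 gave 15 of these calls, and the other 5 genes gave 14 of 30 (46.7%). All 9 probe sets passed in the F-test (69.6% over all). Among the gamma tubulins 3 of 18 passed, all 3 on 1 tubg1 probe set. Without the 20 ug arrays, limma called 10 of the 54 combinations of the other alpha and beta tubulins (18.5%), about the share over all tested probe sets in that fit (19.9%).

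In F7025 the 6 probe sets of tua4, tua5, tub3 and tub5 were above the mean of the other lines, 5 of them with the highest mean. Among the other alpha and beta tubulins 7 of 9 were above that mean and 2 had their highest mean in F7025. The gamma tubulins had theirs there on 3 of 3 probe sets, which stand for 2 genes. The median difference was 0.45 log2 for the members, 0.34 for the other alpha and beta tubulins and 0.75 for the gamma tubulins. An earlier look at these data had already shown tubulins high in F7025, and these counts add no independent evidence. The shares of all tested probe sets above that mean, or highest in F7025, are not given here to set beside these counts.

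Among the alpha tubulins, tua6 lay close to tua5 in its pattern. It read 11.44 on both F7025 arrays, averaged 11.35 ± 0.11 in F2 and 11.35 ± 0.07 in Cm484, and was lower at 11.05 ± 0.15 in F7033 and 10.74 ± 0.07 in F98902 (SD, n = 2 each). Like tua5, it was lower in F98902 than in F2 (−0.61, limma adjusted p = 0.0031) and than in Cm484 (−0.61, adjusted p = 0.0032). The alpha tubulin TUA1 ran the other way in the first pair, higher in F98902 than in F2 by 0.63 (adjusted p = 0.0151).

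The beta tubulins differed more from one another. TUB2 averaged 9.22 ± 0.05 in F7033 and 8.66 ± 0.07 in F2. It was dimmer in the other lines, at 7.50 ± 0.63 in F7025, 7.52 ± 0.36 in F98902 and 6.85 ± 0.09 in Cm484. F7033 was higher than F98902 in TUB2 (1.70, limma adjusted p = 0.0018) and lower in tub5. tub7 was lowest in F98902, at 12.01 ± 0.09, and highest in F2, at 12.92 ± 0.04, a pair that passed (−0.91 for F98902 minus F2, adjusted p = 0.00025). tub4 averaged 11.19 ± 0.65 in F7025 and 11.10 ± 0.06 in Cm484, and was lower in F2 than in Cm484 (−0.996, adjusted p = 0.0184) and in F98902 than in Cm484 (−0.82, adjusted p = 0.0409).

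On all 4 tub6 probe sets Cm484 had the highest mean and F7025 the next. F7033 was below Cm484 on each, by −0.72 to −4.47, and passed in limma. The probe sets disagreed in size and in the order of F7033, F98902 and F2. One read 5.27 ± 0.63 in F7033 and 5.26 ± 0.57 in F2 but 9.35 ± 0.26 in F7025, 8.84 ± 0.35 in F98902 and 9.74 ± 0.55 in Cm484. On another, tub6 averaged 9.46 to 10.34 in the 5 lines. The size of the tub6 difference thus depends on the probe set, and whether the probes pair equally well with the sequence of each line was not tested, for tub6 or for the members.

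**Figure D4:**
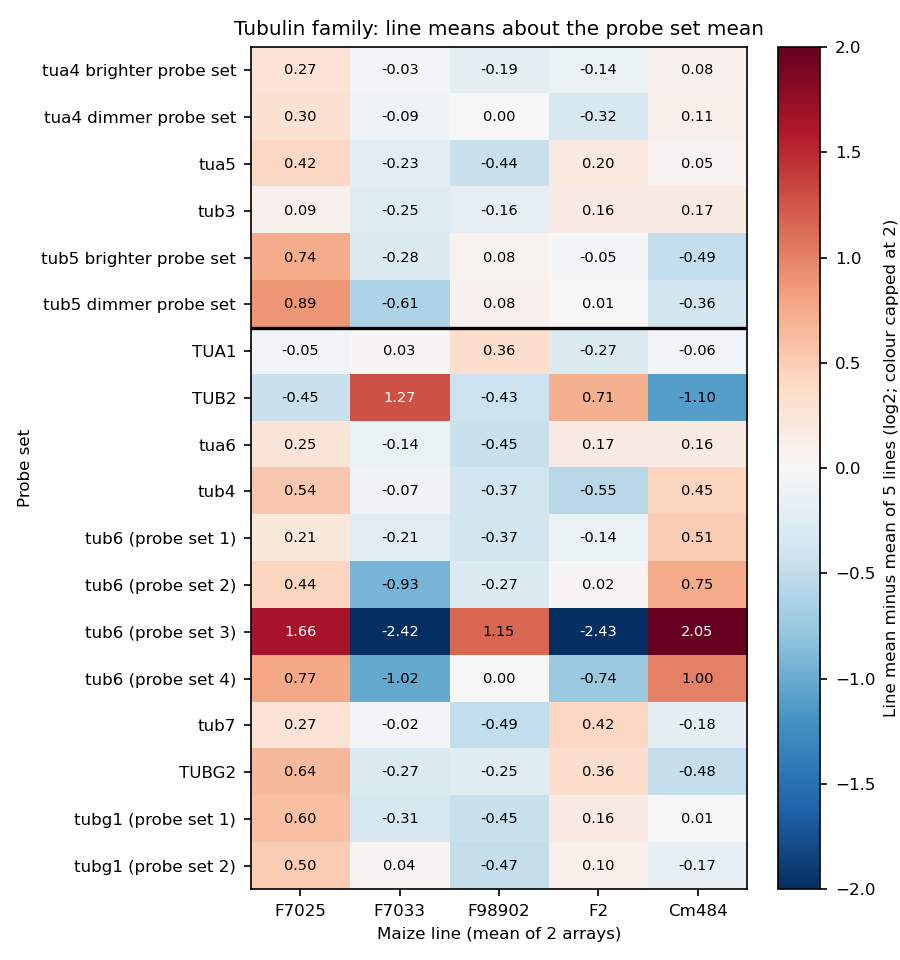
Line means of 18 tubulin probe sets (rows; members above the black line, other alpha, beta and gamma tubulins below) in 5 maize lines (columns), each minus the mean of the 5 lines in log2; red is higher, blue lower, and the colour stops at 2. The F7025 column is above 0 in all 6 member rows, while TUB2 is highest in F7033 and F2 and the 4 tub6 rows differ in size.

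Other lists of genes that act with microtubules or in the wall are given by count, to be read against the 39.6% called over all tested probe sets. Of the 9 other microtubule genes 4 were tested, all kinesins, the motor proteins that move along microtubules, and 7 of 24 combinations passed (29.2%). The largest came from KIN6, which averaged 11.10 to 11.35 in the other lines and 9.71 ± 0.02 in Cm484. In the actin list 1 of 30 combinations passed (3.33%), over 5 tested probe sets of actin-binding proteins. Among the secondary wall cellulose synthases and their partner bk2, 8 of 24 passed (33.3%). The means of bk2, cesa10 and cesa11 were lowest in Cm484, where the brighter tub5 probe set was lowest too. CesA12 averaged 10.74 in both Cm484 and F98902. Of the lines other than F7025, F98902 had the highest mean of the brighter tub5 probe set. The dimmer tub5 probe set was lowest in F7033, where cesa10 had its highest mean. Among the primary wall synthases 19 of 60 passed (31.7%) and among cell division genes 27 of 54 (50%).

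For each gene, the 3 genes with the most similar values over the 10 arrays were found by Pearson's r among 813 genes, with the brightest probe set for each. Over all genes the median r lay between −0.03 and 0.05. Nearest to tua4 were cc7, a cystatin, which inhibits proteases (r = 0.945), CRH, a calreticulin, which binds calcium and helps proteins fold (0.939), and rop9, a small GTPase of the ROP type, a class known for steering plant cell shape (0.897). Without F7025 these stood at 0.905, 0.848 and 0.826. The nearest tubulin was tub4, at rank 6 (0.891).

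Nearest to tua5 were prf5, a profilin, which binds actin (r = 0.938), PDC, a pyruvate decarboxylase (0.920), and the alpha tubulin tua6 (0.914). Without F7025 they kept 0.923, 0.904 and 0.915. prf5 averaged 12.62 in F7025 and 12.12 in F98902, and the other lines lay between 12.25 and 12.35. PDC had means under 4 in 3 lines, at 2.98 in F98902, 3.65 in F7033 and 3.73 in Cm484, below the minimum used for testing.

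Nearest to tub3 were glu1, a beta-glucosidase (r = 0.843), LOC541679 (0.812) and fdx3, a ferredoxin (0.812), and without F7025 they stood at 0.821, 0.968 and 0.870. LOC541679 averaged under 4 in F7025, F7033, F98902 and Cm484. glu1 differed widely within lines, with 9.15 and 6.36 in F7025 and 1.95 and 5.24 in F98902. Nearest to tub5 were Pti1d, a kinase by its name (0.940), NRH2b (0.933) and LOC100037814 (0.885). These fell to 0.723, 0.770 and 0.420 without F7025, at ranks 50, 32 and 206 of 813. The likeness to LOC100037814 thus rests largely on the F7025 arrays, where it averaged 8.38 against 4.31 to 5.83 in the other lines. The high ranks of Pti1d and NRH2b rest on them too, and Pti1d averaged 5.39 there against 4.59 to 4.81.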

How the data were processed

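RNA of maize stems (10 arrays, 5 lines, 2 arrays per line) was measured on the Affymetrix maize array. The values are GCRMA values, which the authors background-adjusted, normalized between arrays and summarised per probe set before they were deposited, per the submitters' processing notes. No GCRMA version was given in the sources used here. The log2 scale of the deposited values was read from their range, 1.35 to 14.55. The files carry no build, so no coordinates are printed, and no sequences are shown.

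Probe sets were named through the platform annotation, and each gene identifier was looked up in RefSeq's gene table of maize B73. It gave 1 gene for 1452 probe sets and several for 1, and 1060 of 1108 genes were matched. The gene identifier of tua4 was not among them, and its name comes from the platform annotation alone; another record of that table carries the synonym tua4 and was not joined, so the name may stand for a second gene. Members and gene lists were chosen with earlier results of these data known.

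R 4.3.3 and limma 3.58.1 served for the tests. A linear model (lmFit) with a term for line and no other was fitted to the 10 arrays together, and eBayes, with the variance allowed to follow brightness, moderated its errors, with 5 residual and 3.09 prior degrees of freedom. Probe sets at 4 or more on 2 or more arrays were tested, 11067 in all, without the 113 array controls. Adjusted p-values are limma's, after Benjamini-Hochberg adjustment over those probe sets, and a call is an adjusted p under 0.05. The number of arrays limits the precision. The code was tested on simulated data. Contrasts with F7025 have no p. All probe sets of the 4 genes are named, other tubulins are named with their line means, other lists are counted, and the 3 genes most like each member are named. KIN6, bk2, cesa10, cesa11 and CesA12 were named after their values were seen. The alternatives were other filters, quantile normalization, array weights, no variance trend, the replicate number as a block, and arrays left out. Replicate differences correlated at −0.38 to 0.37 between lines, over 0.1 in 5 of 10 pairs of lines, so the replicate numbers were not taken to pair the arrays. In the 3 pairs among F98902, F2 and Cm484, whose second arrays used 20 ug RNA, the correlations were 0.27 to 0.37. A shared effect of RNA amount and of replicate number cannot be told apart there. Python 3.11.15, pandas 2.3.3 and matplotlib 3.10.9 were used.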

Additional observations from a re-analysis of the deposited data

How the results depend on the processing

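With 2 arrays per line the calls were fragile, and no result depends on read depth, since these are arrays. The 10 calls among 36 member combinations became 6 without the filter on dim probe sets, 6 without a variance trend and 0 without the 3 arrays of 20 ug RNA, where 3 had an unadjusted limma p under 0.05. Leaving out 1 array gave 4 (without either F7033 array or the second F2 array) to 14 (without either F7025 array). In the F-test, 4 of 6 passed, against 2 without the filter, 2 under quantile normalization, 2 without a variance trend and 0 without the 20 ug arrays (0 at an unadjusted p under 0.05), and 2 to 5 with 1 array left out. The other alpha and beta tubulins had 29 calls, 10 without the 20 ug arrays and 22 to 34 with 1 array left out. Leaving out arrays leaves fewer samples, yet the calls rose without either F7025 array. All 10 arrays share 1 fit, so the spread between the F7025 arrays enters the error of every test. Why the counts moved was not tested. With the replicate number as a block, 9 member combinations and 3 in the F-test passed, and the call lost was the brighter tub5 probe set between F7033 and F98902 (adjusted p = 0.0597).

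F7025 minus the mean of the others ranged over 0.22 to 0.46 for the brighter and 0.21 to 0.55 for the dimmer tua4 probe set and over −0.0677 to 0.28 for tub3 with 1 array left out. Small differences that had not passed changed sign: tua4 (brighter) F7033 minus F2, −0.0155 under quantile normalization; tub3 F2 minus Cm484, 0.0368 under quantile normalization. With 1 array left out, tua4 (brighter) F98902 minus F2 ran over −0.16 to 0.0503, tub3 F2 minus Cm484 over −0.14 to 0.11 and tub5 (dimmer) F98902 minus F2 over −0.17 to 0.32. Over all single comparisons and alternatives, 532 kept direction and side of the threshold, 60 lost their call, 13 gained one and 7 changed sign. The 60 losses all fell on the 10 calls, each tried under 17 alternatives. Many of the 532 were differences that had not passed and still did not. With Spearman's rho in place of Pearson's r, the 3 most similar genes kept 1 of 3 for tua4, 2 for tua5, 1 for tub3 and 0 for tub5.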
